A study of Danio rerio with 6 samples.

Results

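Cathepsins and the proton pump that acidifies the lysosome were followed in whole zebrafish at 5 days post fertilization, in 3 wild type libraries (headed wt11, wt12 and wt13) and 3 libraries of sas10 mutants (headed s1, s2 and s3). The members are the genes whose symbol is that of a cathepsin (cts and a letter), of a subunit or accessory protein of the vacuolar proton pump (V-ATPase; atp6v or atp6ap) or of a lysosome-associated membrane glycoprotein (lamp1 or lamp2). They number 48 of the 32520 genes in the count table: 18 cathepsins, 27 pump genes and 3 lamp genes. Sas10, encoded by utp3, is a nucleolar protein needed to process the precursor of small-subunit ribosomal RNA. The labels give the genotype as sas10 mutant or wild type and the material as the embryo, with polyA RNA; the allele, the zygosity and the number of animals in a library are not given in the sources used here.

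Cathepsins are proteases that break down proteins delivered to the lysosome. Most are cysteine proteases, cathepsin D is an aspartic protease and cathepsin A is a serine carboxypeptidase. Cathepsins are made as inactive precursors that mature in acid, and the acid is supplied by the V-ATPase, in which a soluble V1 sector hydrolyses ATP and turns a membrane-bound V0 sector that carries protons across the membrane. The same pump also acidifies endosomes, the Golgi and synaptic vesicles and acts at the surface of ionocytes and osteoclasts. Lamp proteins coat the inner face of the lysosomal membrane. Zebrafish carry many of these genes as pairs of copies, and where the name table gives both copies one symbol they are told apart below by chromosome.

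Total counts ran from 17599625 to 19718753 per library. As a check of the labels, the gene utp3 measured 35.0, 34.7 and 27.2 CPM in wild type and 10.7, 11.3 and 10.5 CPM in the mutants (log2 -1.58 ± 0.13, edgeR adjusted p = 1.53e-06). CPM are counts per 1000000 on library sizes scaled by TMM. Between the genotypes, 62.2% of the 21708 genes tested were called at an adjusted p under 0.05, with 30.5% higher and 31.8% lower in mutants and a median log2 fold change of -0.04. The wild type library wt11 lay furthest from its group. Its root mean square deviation from the group mean was 0.237 on the log2 scale, against at most 0.199 in the others.

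Of the 48 members, 45 had enough counts to be tested, and 22 of these were called (11 higher and 11 lower in mutants, 48.9% against 62.2% of all genes). The cathepsins and the pump genes differed in how far they moved. Among 15 tested cathepsins, 6 rose, 3 fell and 6 were not called (60.0%), and the median absolute log2 fold change was 0.66, near the 0.64 of all genes. Among 27 pump genes, 4 rose, 7 fell and 16 were not called (40.7%), and the median absolute log2 fold change was 0.27. A change that was called and at least 2-fold was found for 7 cathepsins and 3 pump genes, or 46.7% and 11.1% of those tested, against 29.6% of all genes. The signed medians, -0.04 for cathepsins and -0.05 for pump genes, lay near that of all genes. Libraries of the genotypes did not overlap for 10 of 15 cathepsins and 12 of 27 pump genes, which is 66.7% and 44.4% beside 67.6% of all genes. Without wt11, 7 of 16 tested cathepsins rose and 4 fell, and 6 pump genes rose and 6 fell; with upper-quartile scaling the cathepsins split into 5 higher and 4 lower. No test was made over either list, and the lists were not matched to all genes by level. In whole animals, fewer cells of a type and less RNA per cell cannot be told apart.

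**Figure D1:**
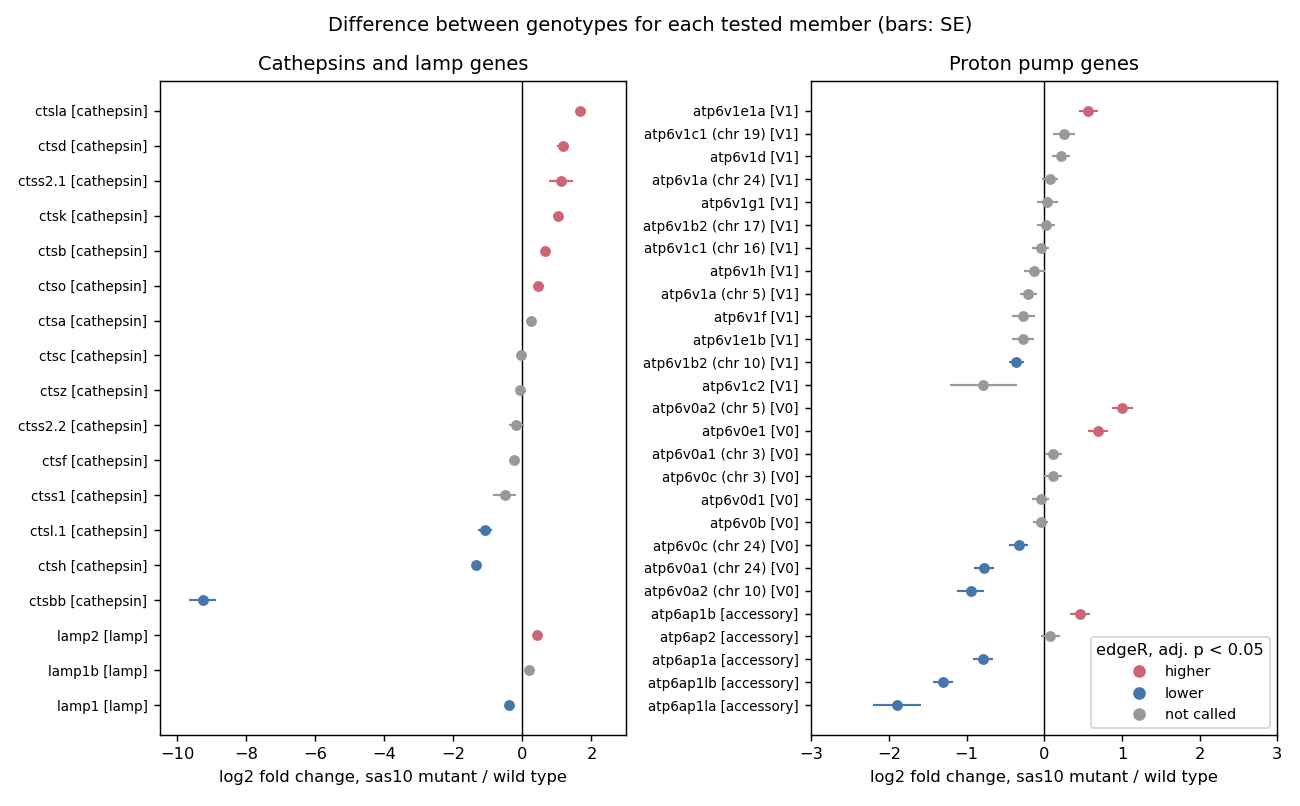
Log2 fold change of sas10 mutants over wild type for each of the 45 tested members, cathepsins and lamp genes on the left and pump genes on the right, with scales that differ; points are edgeR estimates, bars their standard errors, and colour marks the call at an adjusted p under 0.05. Cathepsins reach from -9.27 (ctsbb) to 1.68 (ctsla), while 18 of 27 pump genes lie within 0.5 of 0.

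The cathepsin with the most transcript in both genotypes was ctsla, a zebrafish cathepsin L, an endopeptidase. It measured 673, 532 and 521 CPM in wild type and 1995, 1826 and 1719 CPM in mutants. All 3 mutant libraries lay well above all wild type libraries. The difference was log2 1.68 ± 0.15 (edgeR adjusted p = 2.18e-06), or 3.21-fold in mean CPM. ctsd, the aspartic cathepsin D, measured 209, 143 and 144 CPM in wild type and 419, 351 and 351 CPM in mutants. Its groups did not overlap, with wt11 the highest wild type library (log2 1.18 ± 0.16, adjusted p = 6.85e-05). ctsb, a cathepsin B, which acts as both endopeptidase and carboxypeptidase, rose from 129, 95.1 and 98.8 CPM to 174, 177 and 161 CPM (log2 0.66 ± 0.13, adjusted p = 0.000971), again without overlap. Of the exonic bases of ctsb, 12% are shared with cgref1 on the other strand, and the counting used no strand.

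Among the cathepsins with less transcript, ctsk, in mammals the collagen-degrading protease of osteoclasts, measured 30.2, 21.8 and 23.0 CPM in wild type and 50.7, 51.0 and 50.0 CPM in mutants. The mutant libraries were nearly level and all above wild type (log2 1.02 ± 0.13, adjusted p = 4.52e-05). ctss2.1, one of 3 genes for cathepsin S, which in mammals trims the invariant chain in antigen-presenting cells, measured 4.94, 1.73 and 2.32 CPM in wild type and 8.45, 5.05 and 6.06 CPM in mutants. The lowest mutant library lay just above the highest wild type library, wt11 (log2 1.13 ± 0.35, adjusted p = 0.0176), and the call was lost without s1, wt12 or wt13 (adjusted p = 0.0674, 0.0547 and 0.0626). ctsk, ctss2.1 and ctss2.2 lie in that order on chromosome 16 of GRCz11, in the stretch from 29492749 to 29519977. ctss2.2 did not pass the test, with 12.7, 8.02 and 8.14 CPM in wild type and 6.50, 9.88 and 8.96 CPM in mutants (log2 -0.18 ± 0.22, adjusted p = 0.480). ctso, a cysteine cathepsin of low level, measured 8.05, 9.65 and 8.34 CPM in wild type and 13.5, 11.9 and 10.4 CPM in mutants (log2 0.46 ± 0.15, adjusted p = 0.0210). Its groups did not overlap, but the call was lost without s1 or s2 (adjusted p = 0.0796 and 0.0506) and with upper-quartile scaling.

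The 3 cathepsins that fell did so to different degrees. ctsbb, a second gene for cathepsin B, had 283, 309 and 259 counts in wild type and 0, 0 and 1 count in mutants. It was thus read at 13.3 to 16.2 CPM in each wild type library and was at or near 0 in each mutant library. Summed over libraries, 851 counts stood against 1, a ratio of 846 for scaled libraries with a 95% counting interval of 151.5 to 33460; the interval covers counting error only. The edgeR test gave an adjusted p of 5.41e-09, and the fitted log2 value of -9.27 depends on the single count in s3. ctsb and ctsbb lie on chromosomes 17 and 20 and moved in opposite directions, and whether reads of one copy were assigned to the other was not tested.

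ctsh, whose product trims amino acids from the start of a chain, measured 45.6, 42.2 and 37.3 CPM in wild type and 15.4, 15.8 and 17.8 CPM in mutants. The groups lay far apart relative to their spread (log2 -1.35 ± 0.12, adjusted p = 2.59e-06). ctsl.1, another cathepsin L gene, measured 232, 176 and 122 CPM in wild type and 94.8, 87.0 and 68.0 CPM in mutants. Its wild type libraries spread widely, but none overlapped the mutants (log2 -1.09 ± 0.22, adjusted p = 0.00166). ctsla and ctsl.1 therefore changed in opposite directions.

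Besides ctss2.2, 5 tested cathepsins were not called. ctsf measured 267, 229 and 240 CPM in wild type and 203, 209 and 209 CPM in mutants, and did not pass although its groups did not overlap (log2 -0.25 ± 0.11, adjusted p = 0.0720). ctsa, the serine carboxypeptidase that protects lysosomal neuraminidase and beta-galactosidase, measured 46.1, 31.0 and 30.7 CPM against 45.3, 40.4 and 42.4 CPM. Here wt11 lay above every mutant library while wt12 and wt13 lay below all of them (log2 0.25 ± 0.15, adjusted p = 0.178), and without wt11 ctsa was called higher (log2 0.48, adjusted p = 0.00106). ctsz, a carboxypeptidase also known as cathepsin X, measured 67.6, 52.3 and 49.8 CPM against 53.0, 58.3 and 51.1 CPM. ctsc, which activates granule serine proteases in mammalian leukocytes, measured 39.8, 32.8 and 33.9 CPM against 27.3, 40.3 and 35.9 CPM. Both had overlapping groups, and their 95% intervals of the log2 difference were -0.34 to 0.22 for ctsz and -0.36 to 0.28 for ctsc. The last of them, ctss1, was low in all libraries at 1.39, 1.78 and 1.54 CPM against 0.65, 1.25 and 1.4 CPM (log2 -0.51 ± 0.34). Too few counts were found to test the other 3 cathepsins. ctsll had 38 counts in wild type and 15 in mutants, and ctslb and ctslb.4 had none in wild type and 1 each in mutants. ctslb is a gene of the zebrafish hatching gland, whose own marker he1.2 had no count in any library.

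**Figure D2:**
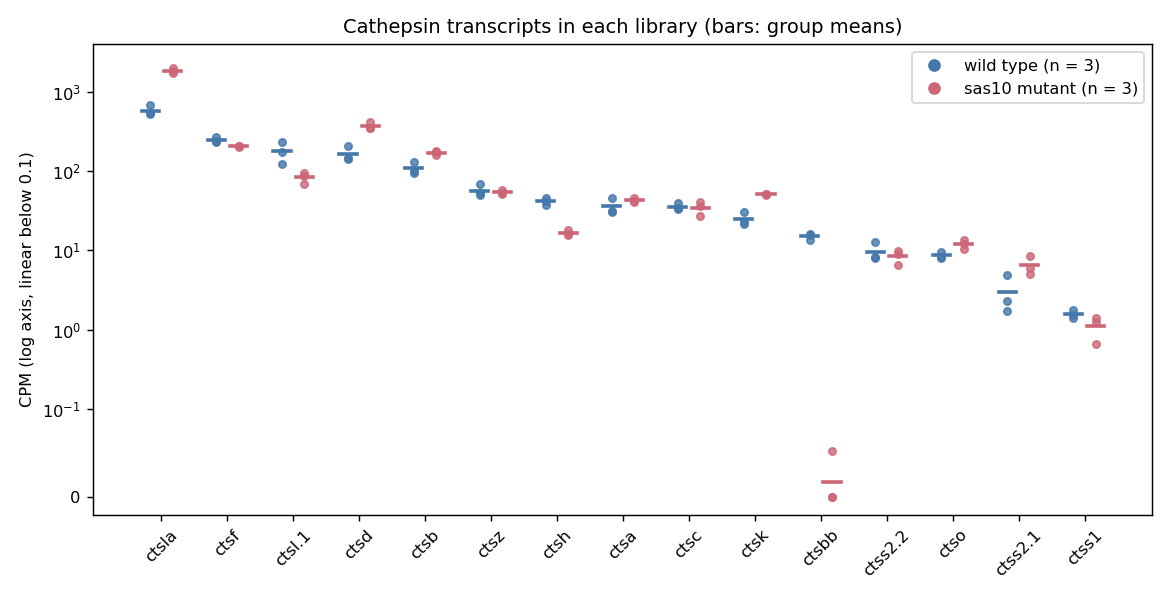
CPM of the 15 tested cathepsins in each library, on a log axis that is linear below 0.1, with points for libraries and bars for means of 3. ctsla and ctsd stand above wild type in all mutant libraries, ctsh and ctsl.1 below, and ctsbb drops from 13.3 to 16.2 CPM to at most 0.052 CPM.

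Levels of different genes were compared per length, as TPM computed from counts and exonic length. All 18 cathepsins together made up 1346 ± 88 TPM in wild type (SD, n = 3) and 2578 ± 127 TPM in mutants, with ranges of 1264 to 1439 and 2458 to 2711. Most of that gap was ctsla. Without it the sums were 792 ± 58.7 and 878 ± 30.8 TPM, and the groups overlapped. The share of ctsla in cathepsin TPM was 41.2% ± 0.94 in wild type and 65.9% ± 0.48 in mutants. In wild type the next shares were ctsl.1 (12.4% ± 2.19), ctsd (11.7% ± 0.73) and ctsf (11% ± 1.07), which lay within their spread of each other. In mutants ctsd came second with a share of 13.3% ± 0.65, then ctsb (5.35% ± 0.26) and ctsf (4.6% ± 0.38), and ctsl.1 followed with 2.95% ± 0.32. The summed TPM of the 27 pump genes lay slightly lower in mutants, at 2403 ± 65.9 against 2662 ± 78.1, with no overlap between 2333 to 2464 and 2575 to 2726. TPM carry no TMM scaling, and this separation holds for TPM only. On TMM-scaled counts the median log2 fold change of the pump genes was -0.05, against -0.04 for all genes. TPM are relative to all other transcripts of a library, so these sums say nothing of absolute amounts.

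**Figure D3:**
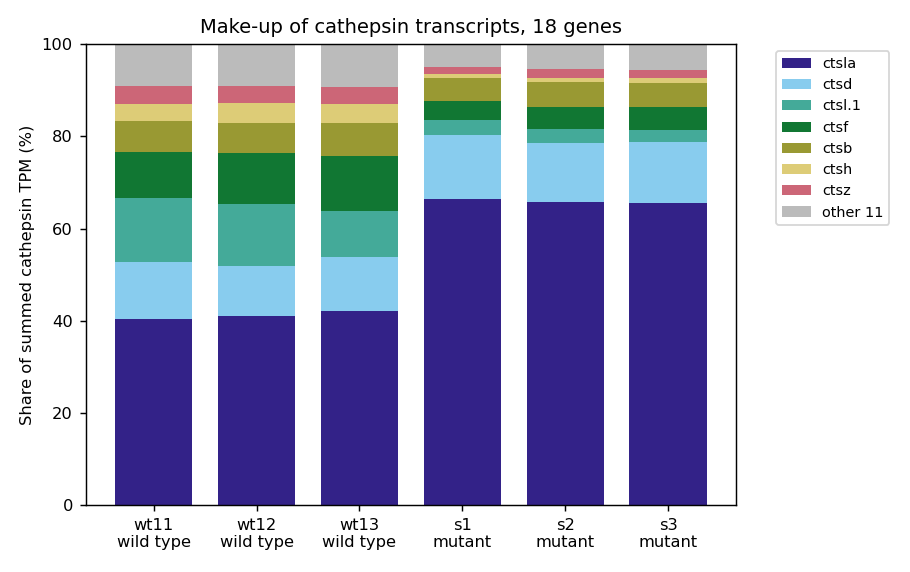
Share of each cathepsin in the summed TPM of the 18 cathepsin genes, 1 stacked bar per library. The ctsla share runs from 40.4% to 42.2% in wild type and from 65.5% to 66.4% in mutants, and the ctsl.1 and ctsh shares are smaller in mutants.

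In the V1 sector, 2 of 13 genes were called (15.4%, against 62.2% of all genes). atp6v1e1a, a copy of the E subunit of the peripheral stalk, rose from 23.3, 18 and 21.9 CPM to 31.2, 29.6 and 32.8 CPM, without overlap (log2 0.57 ± 0.13, adjusted p = 0.00206). Its partner atp6v1e1b, at a higher level, measured 176, 131 and 115 CPM against 121, 115 and 112 CPM. Here the groups overlapped and wt11 stood high (log2 -0.28 ± 0.15, adjusted p = 0.123), and the value moved to -0.07 without wt11 and to -0.39, a call, without wt13 (adjusted p = 0.0245). The other call was the chromosome 10 copy of atp6v1b2, a nucleotide-binding B subunit, which fell from 109 to 114 CPM to 84.6 to 87.3 CPM (log2 -0.36 ± 0.10, adjusted p = 0.00617).

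The remaining V1 genes did not pass. atp6v1g1, the G subunit of the stalk and the V1 gene with the highest TPM, measured 186, 148 and 132 CPM in wild type and 159, 163 and 156 CPM in mutants (log2 0.04 ± 0.13). The chromosome 17 copy of atp6v1b2 measured 203, 178 and 156 CPM against 175, 189 and 181 CPM (log2 0.02 ± 0.12). In both, the mutants lay inside the wild type range. The other 8 V1 genes without a call are both copies of the catalytic subunit atp6v1a, both copies of atp6v1c1, atp6v1c2, atp6v1d, atp6v1f and atp6v1h. Their log2 differences ran from -0.79 in atp6v1c2, which had 54 and 31 counts in all, to 0.25 in the chromosome 19 copy of atp6v1c1. That copy and atp6v1d were called higher without wt11 (log2 0.42 and 0.34). With upper-quartile scaling the chromosome 5 copy of atp6v1a and atp6v1f were called lower (log2 -0.34 and -0.40), as was atp6v1e1b (log2 -0.41). The groups of the chromosome 5 copy of atp6v1a did not overlap.

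In the V0 sector 5 of 9 genes were called (55.6%, near the 62.2% of all genes), and 4 of the calls fell on copies of duplicated subunits. The a subunit couples the proteolipid ring to the stalk, and its isoforms set where the pump resides. The chromosome 5 copy of atp6v0a2, in mammals the Golgi isoform, rose from 12.6, 11.6 and 10.5 CPM to 20.5, 25.8 and 23.3 CPM (log2 1.01 ± 0.13, adjusted p = 5.87e-05). The chromosome 10 copy fell from 9.77, 11.1 and 14.2 CPM to 6.45, 5.64 and 6.06 CPM (log2 -0.95 ± 0.17, adjusted p = 0.000524). Neither pair of groups overlapped. The chromosome 24 copy of atp6v0a1, in mammals the isoform of neurons and synaptic vesicles, fell from 62.9, 76.9 and 82.0 CPM to 41.4, 38.5 and 49.3 CPM (log2 -0.78 ± 0.13, adjusted p = 0.000330). Its lowest wild type library, wt11, was still above every mutant. The chromosome 3 copy was not called, at 73.5 to 88.2 CPM against 82.8 to 91.8 CPM (log2 0.11 ± 0.11).

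For the c subunit, the proteolipid of the rotating ring and the pump subunit with the highest TPM, the chromosome 24 copy of atp6v0c measured 342 to 399 CPM in wild type and 267 to 308 CPM in mutants (log2 -0.33 ± 0.12, adjusted p = 0.0354). This call was lost without s1, s2, s3, wt11 or wt12 in turn (adjusted p = 0.0555 to 0.163) and with no filter beyond 1 count (adjusted p = 0.0673). The chromosome 3 copy measured 309, 258 and 251 CPM against 285, 297 and 298 CPM, within the wild type range (log2 0.11 ± 0.12). Of the exonic bases of this copy, 18.6% are shared with a gene on the other strand. atp6v0e1, a small hydrophobic subunit listed with a single gene, rose from 22.7, 19.1 and 16.7 CPM to 30.4, 31.1 and 32.9 CPM (log2 0.69 ± 0.13, adjusted p = 0.000697), without overlap. It shares 20.3% of its exonic bases with other genes, among them rpl26, so the assignment of its reads is uncertain. atp6v0b, the c″ subunit, and atp6v0d1, the central stalk subunit, both had a log2 difference of -0.05 and were not called.

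Among the 5 accessory genes, 4 were called (80.0%, against 62.2% of all genes). Ac45, the product of atp6ap1, is a membrane protein that helps assemble V0 and direct the pump. atp6ap1a fell from 85.7, 91.1 and 104 CPM to 55.4, 45.6 and 61.3 CPM (log2 -0.79 ± 0.13, adjusted p = 0.000249), while atp6ap1b rose from 67.9, 52.7 and 48.9 CPM to 73.2, 82.3 and 77.6 CPM (log2 0.46 ± 0.13, adjusted p = 0.00882). In neither gene did the groups overlap. The Ac45-like genes both fell. atp6ap1lb measured 31.2, 30.3 and 31.7 CPM in wild type and 11.4, 11.5 and 14.8 CPM in mutants (log2 -1.30 ± 0.13, adjusted p = 6.24e-06). atp6ap1la measured 3.55, 5.56 and 7.47 CPM in wild type and 1.63, 1.03 and 1.76 CPM in mutants (log2 -1.90 ± 0.31, adjusted p = 0.000248), and it lies on chromosome 11, as does utp3, at a distance of 16.2 Mb. atp6ap2, the prorenin receptor, which is also an assembly factor of the pump, was not called (log2 0.08 ± 0.13, 95% interval -0.20 to 0.35).

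Because copies of a subunit moved apart, the counts of its copies among the members were also summed and fitted again with the whole table. This step was chosen after the single copies had been seen. In that fit 62.2% of all rows were called. Of 13 V1 and V0 subunits made up of 22 genes, 1 was called, the e subunit with its single gene. Its wild type mean of 8.33 TPM was the lowest of these subunits, the next being c″ at 89.9 TPM. That TPM divides by an exonic length of 4684 bases, of which 20.3% are shared with other genes. In CPM the e subunit averaged 19.5 in wild type, and F, the next lowest, averaged 42.0. The 12 subunits without a call had log2 differences from -0.27 (F) to 0.22 (D), and their 95% intervals lay within -0.585 to 0.469. Of these, D, F, G, H, c″ and d also have a single gene each, uncalled before, so there was nothing to sum. Only A, B, C, E, a and c were sums of copies. The a subunit, whose 4 copies among the members ranged from -0.95 to 1.01, came to -0.16 ± 0.10. The a3 gene tcirg1, described below, is no member by name and was not in that sum. Ac45 came to -0.19 ± 0.10 with both copies, and the Ac45-like pair fell by 1.38 ± 0.13 on the log2 scale (adjusted p = 4.47e-06). Without wt11 the D subunit was also called higher (log2 0.34), and with upper-quartile scaling F and a were called lower (log2 -0.40 and -0.29).

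**Figure D4:**
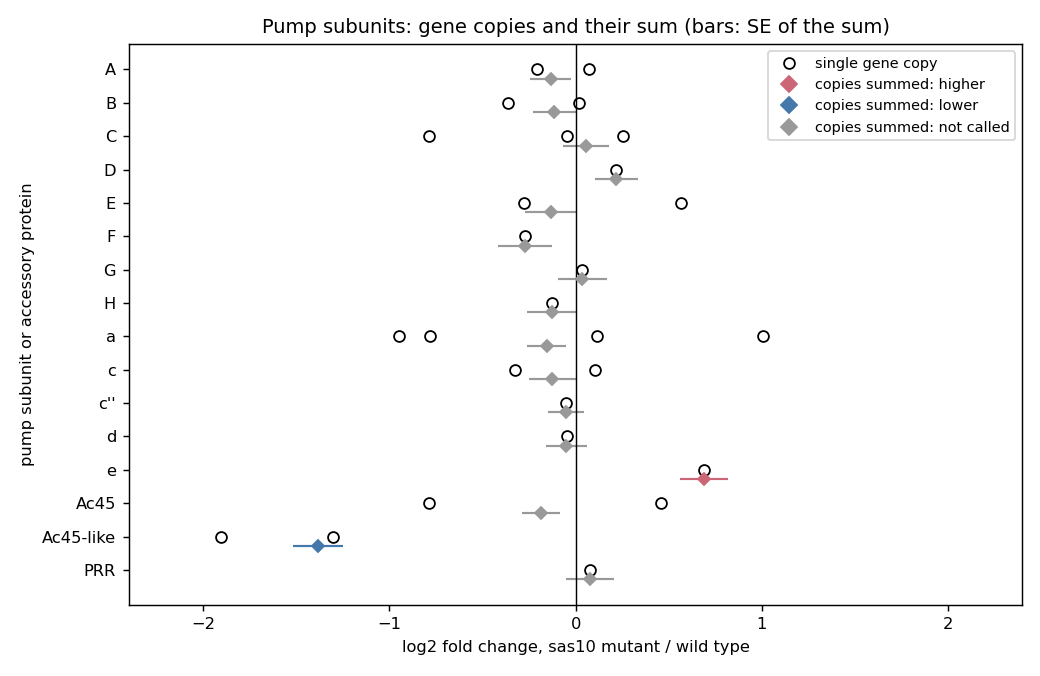
Log2 fold change of mutants over wild type for each pump subunit or accessory protein (Ac45, atp6ap1; Ac45-like, atp6ap1l; PRR, atp6ap2); open circles are single gene copies and diamonds the sum of copies with its standard error, coloured by call. Copies of the a subunit, without tcirg1, spread from -0.95 to 1.01 around a sum of -0.16. Among V1 and V0 subunits only e, a single gene, is called. D, F, G, H, c″ and d are single genes as well.

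The balance between copies was measured as a ratio within each library, for 11 pairs of members. In 10 of 11 pairs the mutant and wild type ratios did not overlap; single genes did not overlap in 67.6% of cases, and no such share was computed for other gene pairs. With 3 libraries against 3 the exact two-sided permutation test cannot go below p = 0.10, which those pairs reached (0.11 adjusted over the 11 pairs); atp6ap1la with atp6ap1lb gave p = 0.30. In 3 pairs the copies were called in opposite directions. In 5 pairs 1 copy was called, in 2 neither and in 1 both in the same direction. Of all genes, 30.5% were called higher and 31.8% lower, and calls in other gene pairs were not counted. The log2 ratio of the chromosome 10 to the chromosome 5 copy of atp6v0a2, per length, was -0.13, 0.18 and 0.67 in wild type and -1.43, -1.95 and -1.70 in mutants. The copies were thus at similar levels in wild type, and the chromosome 5 copy was well ahead in mutants. The log2 ratio of atp6ap1a to atp6ap1b was -0.27, 0.18 and 0.48 in wild type and -1.01, -1.46 and -0.95 in mutants, where atp6ap1b was ahead in every library. Of the third such pair, ctsb and ctsbb, the second copy was nearly absent in mutants. The a3 subunit gene tcirg1, in mammals the isoform of osteoclasts and lysosomes, is no member by name but has copies that also split. Its copy ENSDARG00000016835 fell from 15.8 to 7.81 CPM (log2 -1.02 ± 0.14, adjusted p = 9.25e-05) and ENSDARG00000105142 rose from 17.2 to 26.3 CPM (log2 0.61 ± 0.16, adjusted p = 0.00529).

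**Figure D5:**
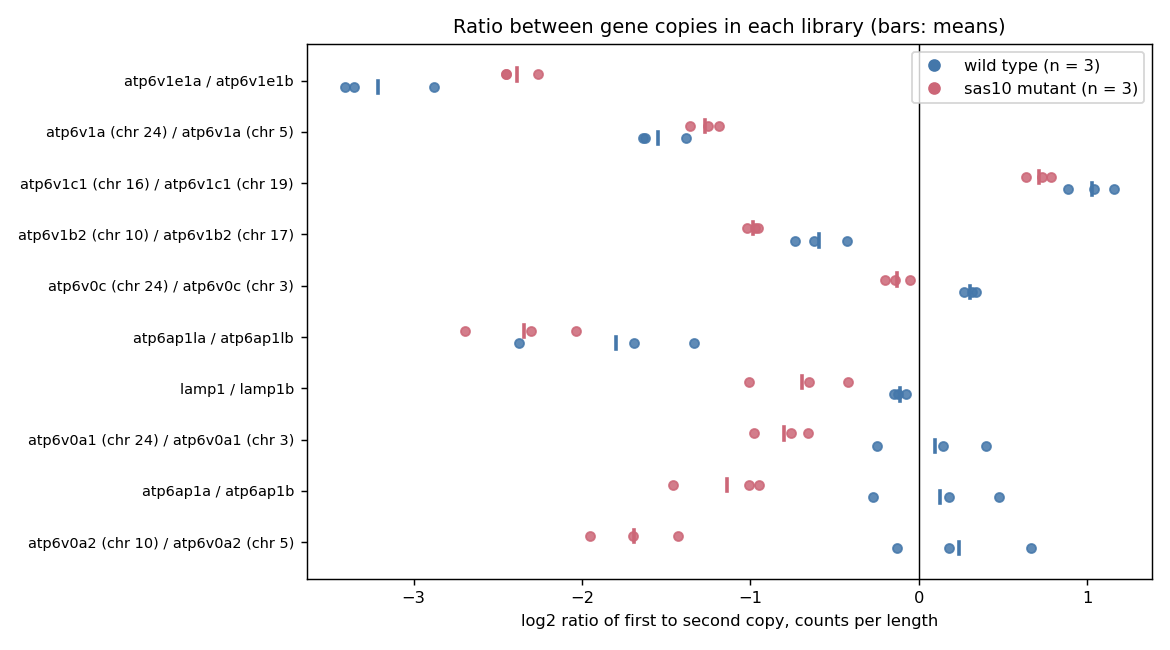
Log2 ratio of the first to the second copy of each pair, as counts per length in each library, with bars for the mean of 3; the pair of ctsb and ctsbb is left off because its mutant ratios lie off this scale. The groups are separate in every pair shown but atp6ap1la and atp6ap1lb, and for atp6v0a2 the mean moves from 0.24 to -1.69.

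All 3 lamp genes had log2 differences within 0.5 of 0, yet 2 were called (66.7%, against 62.2% of all genes). Libraries of the genotypes did not overlap for 2 of them, which is 66.7% beside 67.6% of all genes. lamp2, whose product serves chaperone-mediated autophagy in mammals, rose from 73.2, 80.7 and 78.7 CPM to 99.9, 109 and 99.8 CPM (log2 0.41 ± 0.10, adjusted p = 0.00402), without overlap, though 20.8% of its exonic bases are shared with a gene on the other strand. lamp1 fell from 28.9, 26.3 and 23.3 CPM to 21.3, 21.1 and 17.8 CPM (log2 -0.38 ± 0.13, adjusted p = 0.0213). Its groups did not overlap, but the call was lost without s3, wt11 or wt12 (adjusted p = 0.109, 0.0518 and 0.0560). lamp1b was not called (log2 0.20 ± 0.12). Together the 3 genes came to 140 ± 9.27 TPM in wild type and 146 ± 8.04 TPM in mutants, values that carry no TMM scaling.

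Other genes of the lysosome give the setting, to be read beside the 30.5% of all genes called higher and the 31.8% called lower. Of 5 cystatins, inhibitors of cysteine cathepsins, 2 rose (cst14a.1, log2 1.77, and cst14a.2, log2 1.34) and 2 fell (cst14b.2, log2 -1.59, and cst3, log2 -0.73). The secreted inhibitor cst3 had the most counts of them, with means of 235 CPM in wild type against 142 CPM in mutants. Of 6 other lysosomal peptidases, none rose and 3 fell, led by prcp (log2 -0.68) and dpp7 (log2 -0.43). lgmn, the legumain that cleaves cathepsin precursors, was not called (log2 -0.13 ± 0.14). Of 28 glycosidases and sulfatases, 9 rose and 5 fell around a median of -0.03, with fuca1 (ENSDARG00000035879, log2 0.78) and idua (log2 0.69) leading one side and arsa (log2 -1.13) and naglu (log2 -1.09) the other.

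For lipid handling in the lysosome, 7 of 15 genes rose and 1 fell, with a median of 0.40; the largest rises were a low-count gm2a copy (ENSDARG00000107431, log2 3.26) and the phospholipase pla2g15 (log2 1.03), and scarb2c fell (log2 -0.90). Among 18 membrane channels and transporters 5 rose and 8 fell. The tetraspanin cd63 averaged 125 ± 20.7 CPM in wild type libraries against 589 ± 40.9 CPM in mutants (log2 2.23 ± 0.15, adjusted p = 1.95e-07). The copies of mcoln1, a calcium channel of the lysosome, moved apart (ENSDARG00000002285, log2 0.96, and ENSDARG00000058848, log2 -1.59), and the proton channel gene tmem175 fell (log2 -0.73). Of 16 genes that tag and sort enzymes to the lysosome, 9 rose and 1 fell (62.5% called, the share of all genes being 62.2%), with a median of 0.36; the adaptor subunit ap1m1 (log2 0.80) and the mannose 6-phosphate receptor m6pr (log2 0.75) rose most, and sort1 (ENSDARG00000056252) fell (log2 -0.61). None of 8 genes of the MiT/TFE regulators rose and 2 fell, fnip1 (log2 -0.70) and tfeb (log2 -0.34, adjusted p = 0.0455), where tfeb encodes a transcription factor of lysosomal genes in mammals.

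Markers of cell types, first of those that hold many lysosomes or pumps, are to be read beside the 62.2% of all genes called. The share of tested markers called was 76.9% for macrophages, 50.0% for neutrophils, 75.0% for osteoclasts and 50.0% for pump-rich ionocytes. All 6 markers of lysosome-rich enterocytes were called. The part of these cell types in the results above was not tested. The summed CPM of macrophage markers was 67.8 to 104 in wild type and 112 to 195 in mutants, but 5 of 13 tested markers rose and 5 fell. The mpeg1 copy ENSDARG00000043093 rose (log2 1.77) and mfap4 copy ENSDARG00000090557 rose (log2 3.09), while csf1ra fell (log2 -1.17). The mpeg1 copy ENSDARG00000055290 fell as well (log2 -0.78). The steepest falls were in cd74a (log2 -3.81), cd74b (log2 -2.71) and csf1rb (log2 -2.07). Neutrophil markers summed to 13.5 to 15.0 against 52.1 to 178 CPM, with 1 of 2 tested rising (mmp13a), npsn not called, and lyz, too low to test, at no more than 0.412 CPM in any library. Of 4 osteoclast markers tnfrsf11a rose (log2 1.01) and calcr and acp5b fell (log2 -1.73 and -1.11), with summed levels of 25.7 to 26.9 against 30.4 to 39.4 CPM. Of 6 markers of lysosome-rich enterocytes 5 fell, among them cubn (log2 -1.49), amn (log2 -3.0) and lrp2b (log2 -3.76), and the dab2 copy ENSDARG00000053091 rose (log2 2.57) and lifted the sum from 132 to 147 CPM to 231 to 278 CPM, while the copy ENSDARG00000031761 was among those that fell (log2 -0.54).

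Markers of pump-rich ionocytes summed to 555 to 762 CPM in wild type and 884 to 971 CPM in mutants, with 4 of 10 rising and 1 falling. The markers with the most counts, ceacam1 (log2 0.57) and the rhcg copy ENSDARG00000003203 (log2 0.74), rose, and the rhcg copy ENSDARG00000007080 fell (log2 -2.88); foxi3a, foxi3b and gcm2, which specify these cells, were not called. All 9 exocrine pancreas markers fell, from 20170 to 32650 CPM down to 312 to 326 CPM, the most abundant being ctrb.1 (log2 -6.17) and prss1 (log2 -5.77). Intestine markers summed to 4216 to 5294 against 1426 to 2249 CPM, with 5 of 6 falling, among them chia.2 (log2 -8.99), and apoa1a rising (log2 0.44). Of 10 neuron symbols listed, 4 were matched, to 5 genes. These summed to 1034 to 1351 against 580 to 706 CPM with all 5 falling, including snap25 (ENSDARG00000020609, log2 -0.73) and elavl4 (log2 -0.73). Of 3 hair cell markers 2 fell, pvalb8 (log2 -1.05) and cabp2a (log2 -2.71), with sums of 105.2 to 169.8 against 59.7 to 66.3 CPM. Of 6 markers of yolk and its syncytial layer, 4 fell and 1 rose. The list summed to 4736 to 5153 against 3722 to 4013 CPM, and apobb.1 (log2 -0.40) and apoa4b.1 (log2 -0.56) were among those that fell. Most of the sum was apobb.1, with means of 3538 CPM in wild type and 2682 CPM in mutants. The tissue these transcripts came from was not tested. Both hatching gland markers were at or near 0 in every library.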

How the data were processed

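RNA of 6 libraries (2 genotypes, 3 each) was compared. The deposited gene table holds whole-number counts. It comes, per the file headers, from featureCounts 2.0.1 run by the authors on read pairs over exons, with the GRCz11 annotation of Ensembl 105 and strand not used. The submitters' processing notes also name fastp 0.20.0, HISAT2 2.2.1, Salmon 0.12 and DESeq2 1.40.2, without their order. Reads of overlapping genes are uncertain, on either strand since strand was not used, which touches 11 members. The authors' deposited table of the comparison gives log2 fold changes, their standard errors and adjusted p-values; it lists 15 of the members, all in the direction found here. It holds 8574 genes, none with an absolute log2 value under 0.585, so 15 of the 22 members called here could appear in it.

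A name table gave symbols for 29201 of 32520 identifiers. The whole count table was fitted with edgeR 4.0.16 under R 4.3.3 (TMM, default filter by expression, robust quasi-likelihood test); 21708 genes were tested and called at a Benjamini-Hochberg adjusted p under 0.05 over all of them. Values after ± are SE for log2 fold changes and SD over 3 libraries otherwise. The script was tested on simulated data in which few genes changed. That test does not cover a difference as wide as the one found here. CPM use TMM-scaled library sizes, and TPM were computed here from counts and exonic length. Ratios between copies used 0.5 added counts; pairs were genes under 1 symbol or with names ending in a and b, without ctsa and ctsb, which are different enzymes, and with ctsb and ctsbb and lamp1 and lamp1b added after the names were seen. Libraries of 1 genotype were not repeats of each other (chi-square from 7.29 to 30.5 per degree of freedom, where sampling noise alone gives about 1) and all were kept; the labels call them biological repeats. The count columns show the genotype but not the replicate number.

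Members and lists were chosen with earlier results of these data known. The text gives values in every library for each tested cathepsin, and for pump and lamp genes the 6 largest called changes each way where there were as many, the 4 uncalled genes with the highest TPM and copies called in opposite directions; from the context lists, the 2 largest called changes each way, and from the marker lists, the 2 with the most CPM in each tested list and others named after their values were seen. Of 212 symbols in 8 pathway and 11 marker lists, 147 were matched. Matches were few in some lists, with 3 of 7 neutrophil, 3 of 8 hair cell and 4 of 10 neuron symbols. Alternatives were scaling by RLE or by the upper quartile, DESeq2 1.42.0, voom from limma 3.58.1, a filter that drops only genes without a count, one that asks for 1 CPM in 3 libraries besides 100 counts, leaving out each library, an offset of 1 count and CPM per kb. No sequence is shown, as no sequence table was used here.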

Additional observations from a re-analysis of the deposited data

How the results depend on the processing

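Over 539 alternative values for the 45 tested members, 499 kept both direction and side of the threshold, and 8 (of 7 members) passed it newly. Another 15 (of 4 members: ctso, ctss2.1, the chromosome 24 copy of atp6v0c and lamp1) no longer passed. The remaining 17 (of 13 members) changed sign without being called in either setting. Their adjusted p was 0.403 or more in the alternative setting and 0.373 or more in the main one. With upper-quartile scaling the log2 values with a changed sign were -0.058 in the chromosome 24 copy of atp6v1a, -0.11 in the chromosome 17 copy of atp6v1b2, -0.096 in atp6v1g1, -0.018 in the chromosome 3 copy of atp6v0a1, -0.026 in the chromosome 3 copy of atp6v0c and -0.055 in atp6ap2. Without wt11 they were 0.061 in ctsc, 0.075 in ctss2.2, 0.096 in ctsz, 0.040 in the chromosome 16 copy of atp6v1c1, 0.044 in atp6v1h and 0.051 in atp6v0d1. Without wt13 they were -0.058 in the chromosome 17 copy of atp6v1b2, -0.056 in atp6v1g1 and -0.026 in atp6ap2, and without s1 0.13 in ctsc and 0.0093 in atp6v0b. Upper-quartile scaling moved the median of all genes by -0.132 and, with it, the split of cathepsin calls to 5 higher and 4 lower from 6 and 3, and gave 10 lower pump genes where the main setting gave 7. ctso was then not called (log2 0.33, adjusted p = 0.0820) and ctsf was called lower (log2 -0.38). With copies summed, upper-quartile scaling called 2 subunits lower in place of 0. Leaving out 1 library at a time gave 4 to 7 higher and 3 to 4 lower cathepsins, 4 to 6 higher and 6 to 8 lower pump genes, 1 higher lamp gene and 0 to 1 lower, and with copies summed 1 to 2 higher subunits and 0 lower. The signed median of the cathepsins turned to 0.13 with no filter, which adds the 3 lowest genes, and to 0.06 without s1 and 0.09 without wt11; that of the pump genes turned to 0.04 without wt11. The cause of these changes was not tested. No paired analysis was possible because the count columns carry no replicate numbers of the labels. Genes of few counts, such as ctss1, ctsll and atp6v1c2, are limited by depth.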
